A study of Homo sapiens with 24 samples.

Results

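The genes of mevalonate, sterol and lipid synthesis were followed by symbol through the whole data set. They form a list of 31 genes chosen for their place in these pathways, with earlier results of these data known. Of the 31, 29 were measured as single-gene probe sets, out of 18395 genes in all. *FDFT1* has no probe set under that symbol here, and the probe set of *HSD17B7* is shared with *HSD17B7P2*, so neither was used. *CYP51A1* has 2 probe sets, of which the one with the higher mean was taken. The study asked whether the antisense long non-coding RNA *FMR4*, made from the *FMR1* locus, alters the expression of genes elsewhere in the genome. HEK293T cells, a human embryonic kidney line, were measured on 24 Affymetrix arrays, 3 for each of 8 conditions. The knockdown arm received 40 nM FMR4 siRNA or CTRL siRNA with Lipofectamine RNAiMAX, and the overexpression arm received 0.5 μg of FMR4 pcDNA3.1 or of the empty vector, CTRL pcDNA3.1, with Lipofectamine 2000CD. Each of these 4 treatments was sampled at 6 h and at 24 h. Each array holds 1 biological replicate pooled from 3 technical ones. The knockdown rests on 1 siRNA sequence in 1 cell line. Between the arms, nucleic acid and reagent cannot be told apart, and the level of *FMR4* itself was not read from these arrays.

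Cells build cholesterol and isoprenoids from acetyl-CoA through mevalonate. ACAT2 and HMGCS1 act at the entry, MVK, PMVK and MVD turn mevalonate into isopentenyl diphosphate, and IDI1, FDPS and GGPS1 isomerise and join these units into farnesyl and geranylgeranyl diphosphate. The latter lipids anchor small GTPases in membranes. The sterol branch runs from squalene (SQLE, LSS) through lanosterol demethylation and its follow-up steps (CYP51A1, TM7SF2, MSMO1, NSDHL, EBP, SC5D) to cholesterol (DHCR7). The transcription factors SREBF1 and SREBF2 switch on many of these genes, and those of fatty acid synthesis, when SCAP escorts them out of a sterol-poor endoplasmic reticulum, while INSIG1 and INSIG2 hold them back. STARD4 and NPC1 move cholesterol between membranes. ACLY, FASN, SCD, FADS1 and FADS2 supply acetyl-CoA, make palmitate and desaturate fatty acids.

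The values are the log2 expression values that the authors deposited, with array medians of 7.43 to 7.53. All 29 genes lay above the upper quartile of 428 olfactory receptor and keratin-associated protein genes (6.00), with condition means of 7.72 to 12.54. The SD of a gene within a condition was 0.01 to 0.33, with a median of 0.07. All 10 genes listed as expressed in HEK293T cells were above that quartile, as were 12 of 21 markers of liver, steroid-making, fat, blood, endothelial and fibroblast cells. The latter were 1 of 4 for liver, 1 of 4 for steroid-making cells, 4 of 4 for fat, and 2 of 3 each for blood, endothelium and fibroblasts. They ranged from 3.91 (*DCN*) to 8.31 (*COL1A1*), and their part in the results was not tested. Array weights, which measure how closely an array follows its condition, were lowest for FMR4 siRNA 6 h replicate 3 (0.15).

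The promoters of 4 of the genes are printed as the 250 bases before a RefSeq start, 5′ to 3′ on the gene's strand, in GRCh38.p14. *GGPS1* and *STARD4* are shown because they differed in the knockdown, and *INSIG1* and *SREBF2* because they belong to the sterol sensor and differed between the transfection arms. *GGPS1* lies at chr1:235327216-235344532, has 3 starts in that table, and the window that holds a CCAAT box is shown, chr1:235328320-235328569 on the plus strand. The others are chr5:111512536-111512785 on the minus strand for *STARD4*, chr7:155297628-155297877 on the plus strand for *INSIG1* and chr22:41832855-41833104 on the plus strand for *SREBF2*. Capitals mark CCAAT, the sequence that NF-Y binds (ATTGG where it lies on the other strand), CACGTG, an E-box, and CACCCCAC, a core of the sterol regulatory element.
GGPS1: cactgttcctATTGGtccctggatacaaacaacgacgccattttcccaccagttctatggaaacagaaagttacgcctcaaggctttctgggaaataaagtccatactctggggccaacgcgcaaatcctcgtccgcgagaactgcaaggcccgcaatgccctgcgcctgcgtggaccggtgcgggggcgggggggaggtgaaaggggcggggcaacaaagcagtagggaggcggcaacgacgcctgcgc
STARD4: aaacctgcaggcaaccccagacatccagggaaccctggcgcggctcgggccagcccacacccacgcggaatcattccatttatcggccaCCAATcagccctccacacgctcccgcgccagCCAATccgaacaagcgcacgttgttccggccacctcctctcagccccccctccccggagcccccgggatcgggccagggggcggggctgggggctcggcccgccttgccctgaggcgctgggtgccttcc
INSIG1: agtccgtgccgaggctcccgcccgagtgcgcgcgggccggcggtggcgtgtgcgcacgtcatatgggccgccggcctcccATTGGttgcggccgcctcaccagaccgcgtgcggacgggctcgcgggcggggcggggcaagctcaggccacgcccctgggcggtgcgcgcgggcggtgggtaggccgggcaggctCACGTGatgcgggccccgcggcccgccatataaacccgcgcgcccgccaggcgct
SREBF2: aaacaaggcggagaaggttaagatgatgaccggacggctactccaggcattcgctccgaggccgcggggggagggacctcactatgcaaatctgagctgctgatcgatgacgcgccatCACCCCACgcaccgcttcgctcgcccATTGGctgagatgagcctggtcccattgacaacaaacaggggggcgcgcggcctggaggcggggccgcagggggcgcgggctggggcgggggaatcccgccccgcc
The RefSeq table held windows of 27 of the 31 genes, with *ACAT2*, *FASN*, *FDFT1* and *SQLE* not matched. Over the whole windows, which run from 250 bases before to 50 after a start, CCAAT on either strand was found in 20 of these 27 genes (74.1%). The share was 39.7% of all 27305 genes in the table and 42.1% of its 15843 protein-coding genes. Genes can have several windows, and by window the shares were 62.2% of 37 and 34.6% of 35116. CACGTG was found in 4 genes (*INSIG1*, *LSS*, *SC5D* and *SCAP*), 14.8% against 8.77% of all genes and 10.9% of protein-coding genes. CACCCCAC was found in *SREBF2* and in no other of the 27, 3.70% against 3.39% of all genes and 3.87% of protein-coding genes. None of these motifs overlaps another in the sequences shown. These shares are descriptions, and a missing match says only that the letters are not in the window.

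At 24 h of FMR4 siRNA, *GGPS1*, the synthase of geranylgeranyl diphosphate, fell 2.05-fold, and *STARD4*, a soluble carrier of cholesterol, rose 1.33-fold. The other 27 genes did not pass the test. In the 3 FMR4 siRNA arrays *GGPS1* read 8.90, 8.98 and 8.59, and in the 3 CTRL siRNA arrays it read 9.85, 9.87 and 9.85. All arrays of the other 6 conditions lay between 9.49 and 9.98, so the 3 FMR4 siRNA arrays of 24 h stood below every other array of the series. The log2 difference was −1.03 (SE 0.080, 95% CI −1.20 to −0.87, adjusted p = 1.25e-08, limma over all named probe sets). The test was passed under each of 10 alternative settings and without each of the 6 arrays, with differences between −1.11 and −0.92 and adjusted p of at most 0.000236. A lower level per cell and fewer cells that express the gene cannot be told apart in these arrays. *ARID4B*, which overlaps the start of *GGPS1*, and *TBCE*, on its other side, were looked up after the values were seen. The difference was 0.14 for *ARID4B* (adjusted p = 0.563) and 0.01 for *TBCE* (0.973).

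*STARD4* read 8.20, 8.33 and 7.86 with FMR4 siRNA and 7.81, 7.64 and 7.72 with CTRL siRNA at 24 h. The lowest FMR4 siRNA array lay just above the highest control array. The log2 difference was 0.41 (SE 0.096, 95% CI 0.21 to 0.61, adjusted p = 0.0110, limma). The 3 CTRL siRNA arrays of 24 h were the lowest of the series, and all other arrays lay between 7.86 and 8.38. The call of *STARD4* was lost when CTRL siRNA replicate 2 of this time was left out (adjusted p = 0.0704), likewise for replicate 1 (0.0567) or 2 (0.101) of FMR4 siRNA, and in a fit to the 6 arrays compared (0.0679). Over all alternatives the adjusted p ran from 0.000451 to 0.101.

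By count, 2 of 29 genes (6.90%) were called at 24 h, 1 in each direction, beside 5.89% of all genes tested. With CTRL siRNA 24 h replicate 3 left out the count was 3. The difference was above 0 in 23 of 29, with a median of 0.09, beside 51.7% of all genes and a median of 0.00. These 23 positive differences were spread over the pathway. They were 5 of 8 in the mevalonate branch, 8 of 9 from squalene to cholesterol, 4 of 5 in sterol sensing, both transport genes and 4 of 5 in fatty acid synthesis. *IDI1*, which isomerises isopentenyl diphosphate, differed by 0.20 (adjusted p = 0.1004), *SREBF1* by 0.19 (0.209), *EBP*, a sterol isomerase, by 0.18 (0.148) and *SC5D*, a sterol desaturase, by 0.17 (0.0945). All 4 had an unadjusted p under 0.05 and none passed the threshold. With *GGPS1* and *STARD4*, 6 of the 29 genes had an unadjusted p under 0.05, beside 3017 of all 18395 genes. *FDPS*, which makes the farnesyl diphosphate that *GGPS1* extends, differed by 0.09. Neither *SREBF2* (0.10) nor *INSIG1* (0.13) passed the test.

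**Figure D1:**
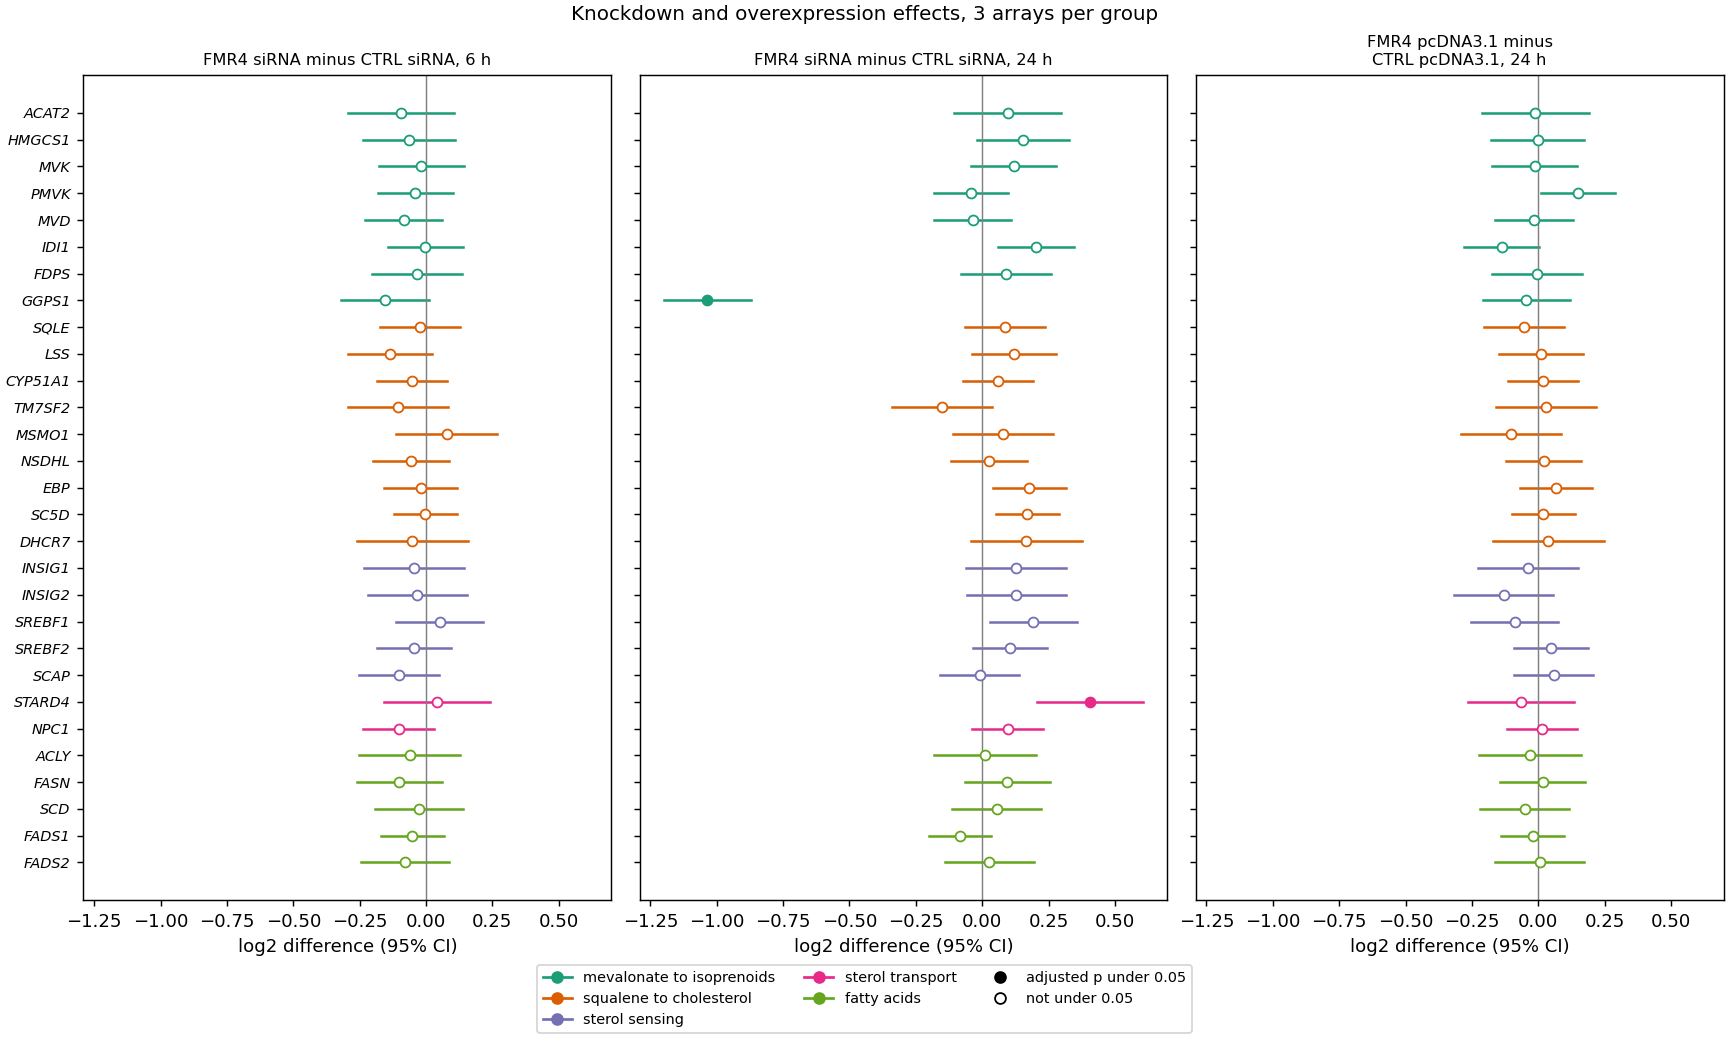
Log2 differences of the 29 genes with their 95% confidence intervals, for FMR4 siRNA minus CTRL siRNA at 6 h (left) and 24 h (middle) and FMR4 pcDNA3.1 minus CTRL pcDNA3.1 at 24 h (right), from 3 arrays per group; colours give the role of a gene and filled points an adjusted p under 0.05. GGPS1 (−1.03) and STARD4 (0.41) at 24 h of knockdown are the filled points, and the other points of all panels lie between −0.15 and 0.20.

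At 6 h of FMR4 siRNA, limma called 0 of the 29 genes, beside 0.0598% of all genes. Of the 29, 0 had an unadjusted p under 0.05, beside 718 of all 18395 genes. *GGPS1* had the lowest p. It read 9.49, 9.74 and 9.69 with FMR4 siRNA and 9.67, 9.83 and 9.88 with CTRL siRNA, and these overlapping values differed by −0.15 (SE 0.080, 95% CI −0.32 to 0.01, adjusted p = 1.00). The difference was below 0 in 26 of 29 genes, with a median of −0.05, beside 39.1% of all genes above 0. This direction was not stable, because with single arrays left out between 3 and 15 of the 29 differences were above 0. The knockdown effect at 24 h was set against that at 6 h as a contrast of its own. *GGPS1* was the one gene called, with −0.88 (SE 0.11, adjusted p = 0.000230), 1 of 29 beside 1.19% of all genes, and it passed under every alternative (adjusted p up to 0.0344). The count was 2 when FMR4 siRNA 24 h replicate 3 was left out. For *STARD4* the same contrast gave 0.36 (SE 0.14, adjusted p = 0.280).

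Overexpression left the 29 genes without a call. With FMR4 pcDNA3.1 against CTRL pcDNA3.1, limma called 0 of 29 at 6 h and 0 of 29 at 24 h, beside 0% of all genes at either time. The number with an unadjusted p under 0.05 was 0 at 6 h and 1 at 24 h, beside 372 and 602 of all 18395 genes. No alternative setting called any of the 29. At 24 h the lowest p belonged to *PMVK*, phosphomevalonate kinase, which read 7.91, 7.94 and 7.87 with FMR4 pcDNA3.1 and 7.81, 7.68 and 7.78 with the empty vector, a difference of 0.15 (SE 0.067, adjusted p = 0.999). At 6 h it was *MVD*, with 9.03, 8.98 and 9.16 against 8.85, 8.98 and 8.95, a difference of 0.13 (SE 0.070, adjusted p = 1.00). *GGPS1* read 9.87, 9.84 and 9.86 at 24 h of FMR4 pcDNA3.1 and 9.85, 9.98 and 9.88 with the empty vector, which overlap. The overexpression effect minus the knockdown effect at 24 h, which tests whether the effects differ, was 0.99 for *GGPS1* (SE 0.11, adjusted p = 1.44e-05). This was the one call of 29, beside 2.13% of all genes, and the plasmid arm itself gave −0.04 (95% CI −0.21 to 0.12). The count was 3 when FMR4 siRNA 24 h replicate 3 was left out. *STARD4* gave −0.47 (SE 0.14, adjusted p = 0.0867) and *IDI1* −0.34 (SE 0.097, adjusted p = 0.0803).

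Lists of genes around the 29 were counted in the same knockdown comparison at 24 h, beside the 5.89% of all genes called. These lists were also chosen with earlier results of these data known. Of 15 measured genes that use prenyl diphosphates or act together with prenylated proteins, 3 rose and 0 fell. None of these 3 is itself an enzyme that consumes a prenyl diphosphate. *ICMT*, which methylates the prenylated cysteine of Ras-like proteins, was at 11.05 ± 0.05 with FMR4 siRNA and 10.57 ± 0.03 with CTRL siRNA (SD, n = 3 each), and rose by 0.48 (adjusted p = 2.44e-06). *CHML*, an escort protein for Rab geranylgeranylation, rose by 0.38 (0.00170) and *RCE1*, the protease that trims prenylated proteins, by 0.29 (0.0118). The median difference of the 15 was 0.04. Of 12 genes of SREBP processing and sterol-regulated degradation, 3 rose and 0 fell, with a median of 0.04. They were *MBTPS1*, the site-1 protease that cleaves SREBPs (0.33, adjusted p = 0.000310), *PAQR3*, a Golgi anchor of SCAP (0.27, 0.0111), and *RNF139*, a ubiquitin ligase of the endoplasmic reticulum (0.26, 0.0370). In the 18 genes of sterol transport and storage 1 rose and 0 fell, with a median of 0.06, and that gene was *GRAMD1B*, a sterol carrier at membrane contacts (0.36, 0.00173).

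Calls in the remaining lists went down. Of 9 other sterol and ketone enzymes 0 rose and 1 fell, with a median of −0.09. The gene was *ACAT1*, the mitochondrial thiolase, at 9.91 ± 0.11 with FMR4 siRNA and 10.48 ± 0.04 with CTRL siRNA (SD, n = 3 each), which fell by 0.57 (adjusted p = 0.000134). Of 29 genes of fatty acid and glycerolipid synthesis 0 rose and 2 fell, with a median of −0.01. *SCD5*, a stearoyl-CoA desaturase, fell by 0.49 (adjusted p = 0.000482) and *ELOVL5*, an elongase of polyunsaturated fatty acids, by 0.30 (0.00128). In all 10 of these genes the 3 FMR4 siRNA arrays lay apart from the 3 CTRL siRNA arrays. The calls of *ICMT*, *CHML*, *MBTPS1*, *GRAMD1B*, *ACAT1*, *SCD5* and *ELOVL5* were kept in all 16 alternatives. *RCE1* was lost in the absence of replicate 2 of CTRL siRNA (adjusted p = 0.0797) or replicate 3 of FMR4 siRNA (0.0637). *PAQR3* was lost without replicate 2 of CTRL siRNA (0.101) or of FMR4 siRNA (0.0982) and in a fit to the 6 arrays (0.0969). *RNF139* was lost in 8 of the 16, among them the absence of any CTRL siRNA 24 h array or of FMR4 siRNA 24 h replicate 1 or 2, with adjusted p up to 0.197. At 6 h, limma called 0 genes in every one of these lists, beside 0.0598% of all genes. In the lists 2 genes had an unadjusted p under 0.05, beside 718 of all 18395 genes.

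More of the 29 genes differed between the arms, with 6 arrays on each side, than between FMR4 and its controls, with 3. At 6 h most of the 29 genes were higher in the plasmid arm than in the siRNA arm. This contrast, the mean of both plasmid groups minus the mean of both siRNA groups, was added after the values were seen, as were the pooled changes over time. By limma 22 of 29 genes (75.9%) were higher with plasmid and 0 lower, beside 19.2% of all genes called and 11.5% called higher. The median difference was 0.18, and 29 of 29 lay above 0, beside a median of −0.01 and 47% of all genes. The called genes were 6 of 8 of the mevalonate branch, 7 of 9 from squalene to cholesterol, 4 of 5 of sterol sensing, *STARD4* in transport and 4 of 5 of fatty acid synthesis. *GGPS1* (0.16, adjusted p = 0.0540), *PMVK*, *NSDHL*, *SC5D*, *INSIG2*, *NPC1* and *FADS1* were not called.

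*ACAT2*, the cytosolic thiolase, gave the largest of these differences. At 6 h it read 10.26, 10.31 and 10.09 with CTRL siRNA and 10.37, 10.19 and 9.82 with FMR4 siRNA. It read 10.52, 10.47 and 10.65 with CTRL pcDNA3.1 and 10.57, 10.54 and 10.64 with FMR4 pcDNA3.1. All 6 plasmid arrays lay above all 6 siRNA arrays, and the arms differed by 0.39 (SE 0.068, adjusted p = 0.00166), a fold of 1.31. *DHCR7*, the last reductase of cholesterol synthesis, ran from 10.61 to 11.25 with siRNA (median 11.03) and from 11.33 to 11.42 with plasmid (median 11.39). Its arms did not overlap either, and it differed by 0.38 (SE 0.071, adjusted p = 0.00239). *SCD*, the stearoyl-CoA desaturase, ran from 11.80 to 12.28 with siRNA (median 12.14) and from 12.32 to 12.42 with plasmid (median 12.38), a difference of 0.29 (SE 0.057, adjusted p = 0.00288). *SREBF1* and *NSDHL* were the other genes whose arms did not overlap, 5 of 29 in all. *MSMO1*, the methylsterol oxidase, differed by 0.28 (adjusted p = 0.00634) and *INSIG1* by 0.27 (0.00706), with arms that overlapped.

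The number called depended on single arrays. It was 9 when CTRL siRNA 6 h replicate 3 was left out, 14 in the absence of replicate 2 of FMR4 siRNA and 12 in that of replicate 3 of FMR4 pcDNA3.1, and it ranged from 9 to 23 over all 12 arrays left out in turn. A fit to the 12 arrays of 6 h called 10. The direction did not depend on single arrays, and 28 or 29 of the 29 differences stayed above 0 under every alternative. Alternatives that change only the spread, the adjustment or the genes fitted leave a difference as it is and could not turn it. *ACAT2*, *DHCR7*, *SCD*, *MSMO1*, *INSIG1*, *HMGCS1* (0.24), *SREBF2* (0.21), *SREBF1* (0.20) and *CYP51A1* (0.20) were called under every alternative and every array left out. Without FMR4 siRNA 6 h replicate 3, the array of lowest weight, 15 were called. Replicate 3 of CTRL siRNA and replicate 3 of FMR4 siRNA at 6 h deviated together over all genes (correlation 0.47). They were not both left out at once.

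**Figure D2:**
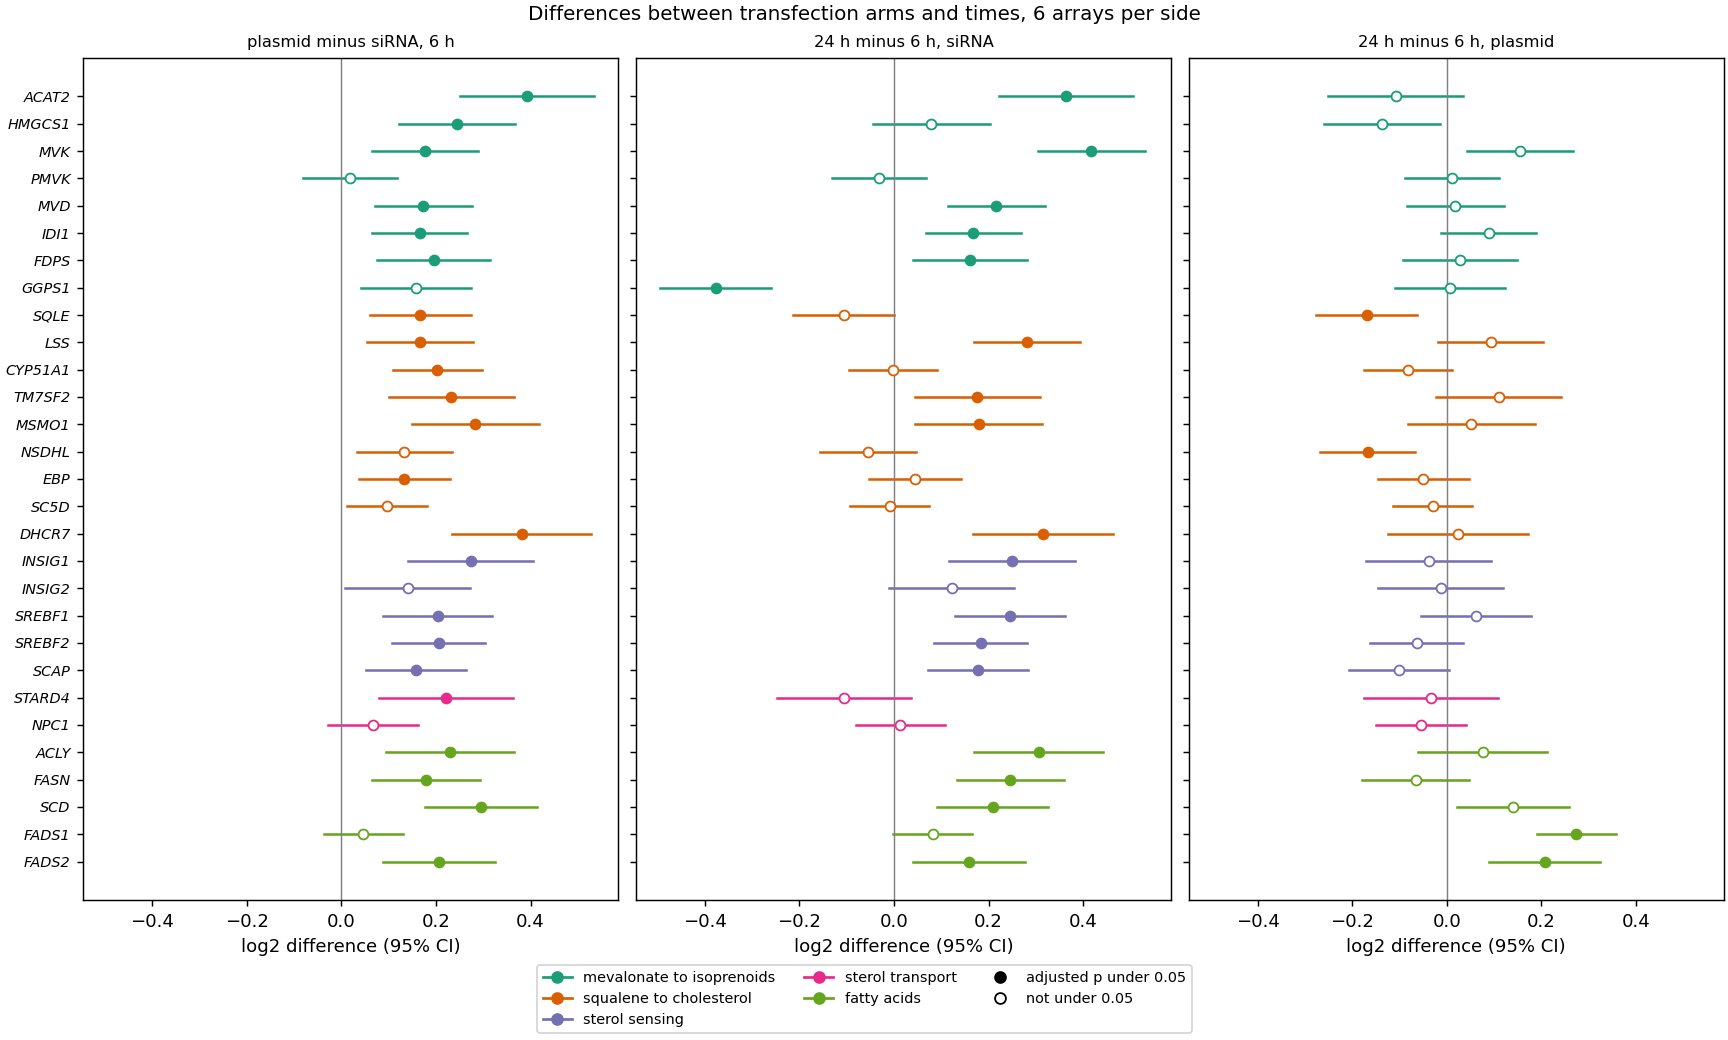
Log2 differences of the 29 genes with 95% confidence intervals for both plasmid groups minus both siRNA groups at 6 h (left) and for 24 h minus 6 h within the siRNA arm (middle) and the plasmid arm (right), 6 arrays per side; filled points have an adjusted p under 0.05. All 29 points lie above 0 on the left, 22 in the middle and 15 on the right, and the first and second panels share the 6 siRNA arrays of 6 h.

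From 6 h to 24 h 17 of these genes rose in the siRNA arm and 2 in the plasmid arm. Over both siRNA groups 17 of 29 genes rose and 1 fell, together 62.1%, beside 29.9% of all genes called and 18.3% called higher. The median change was 0.17, with 22 of 29 above 0, beside 0.00 and 48.5% of all genes. *MVK*, mevalonate kinase, rose most, by 0.42 (SE 0.054, adjusted p = 9.17e-06). At 6 h it read 8.14, 8.25 and 8.08 with CTRL siRNA and 8.36, 8.11 and 7.96 with FMR4 siRNA. At 24 h it read 8.55, 8.51 and 8.47 and 8.59, 8.70 and 8.59, so that all 6 later arrays lay above all 6 earlier ones. *ACAT2* (0.36), *DHCR7* (0.31), *ACLY*, the ATP citrate lyase (0.31), and *LSS*, lanosterol synthase (0.28), were the next largest rises. *GGPS1* was the fall (−0.38, adjusted p = 3.82e-05). Its mean fell from 9.64 to 8.82 with FMR4 siRNA and went from 9.79 to 9.86 with CTRL siRNA. Between 14 and 18 genes were called with single arrays left out. This comparison and the one between the arms at 6 h use the same 6 siRNA arrays of 6 h.

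In the plasmid arm 4 of 29 genes (13.8%) changed over the same time, beside 18.2% of all genes, with a median of 0.01 and 15 of 29 above 0, against 57.8% of all genes. *FADS1* and *FADS2*, the desaturases of polyunsaturated fatty acids and neighbours at chr11:61799627-61867354, rose by 0.27 (adjusted p = 5.71e-05) and 0.21 (0.0133). *SQLE*, squalene epoxidase, changed by −0.17 (0.0247) and *NSDHL*, a sterol dehydrogenase, by −0.17 (0.0195). The falls of *SQLE* and *NSDHL* were both lost without CTRL pcDNA3.1 24 h replicate 2 or FMR4 pcDNA3.1 24 h replicate 3, which left 2 calls. *FADS1* read 11.10, 11.15 and 11.17 with CTRL pcDNA3.1 and 11.11, 11.11 and 11.13 with FMR4 pcDNA3.1 at 6 h. It read 11.44, 11.40 and 11.39 and 11.39, 11.41 and 11.37 at 24 h, above every earlier plasmid array.

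The change over time with siRNA minus that with plasmid was tested as an interaction and called 8 of 29 genes (27.6%), 6 higher and 2 lower, beside 11% of all genes. The median was 0.13, with 24 of 29 above 0, beside −0.02 and 46.3% of all genes. *ACAT2* had the largest difference, 0.47 (SE 0.097, adjusted p = 0.00489), followed by *FASN*, the fatty acid synthase, with 0.31 (SE 0.078, adjusted p = 0.0147). *INSIG1* (0.29), *SCAP* (0.28), *MVK* (0.26) and *SREBF2* (0.25), 3 of them genes of sterol sensing, had adjusted p from 0.0178 to 0.0437. The 2 lower genes were *GGPS1* (−0.38, adjusted p = 0.00521) and *FADS1* (−0.19, 0.0335). The value for *GGPS1* averages a fall with FMR4 siRNA and no fall with CTRL siRNA. *ACAT2*, *FASN* and *GGPS1* passed under every alternative, and each of the other 5 calls was lost under at least 1. The count was 4 when CTRL siRNA 6 h replicate 3 was left out. It was 5 in the absence of replicate 2 or 3 of FMR4 pcDNA3.1 at 6 h or replicate 3 at 24 h, and 13 in that of replicate 1 of FMR4 siRNA at 6 h.

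The median of the 29 genes in each array shows the same pattern as a level, relative to each gene's mean in CTRL siRNA at 6 h. In the 6 siRNA arrays of 6 h it ran from −0.10 to 0.09 (median −0.03). In the plasmid arrays of 6 h it ran from 0.12 to 0.21 (median 0.15), above every siRNA array of that time. At 24 h it ran from 0.09 to 0.21 (median 0.13) with siRNA and from 0.12 to 0.27 (median 0.17) with plasmid, and these overlapped. The median over all genes stayed between −0.05 and 0.03 in every array. The plasmid arrays of 6 h also stood above the siRNA arrays of 6 h after centring each array on its median and after quantile normalization.

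**Figure D3:**
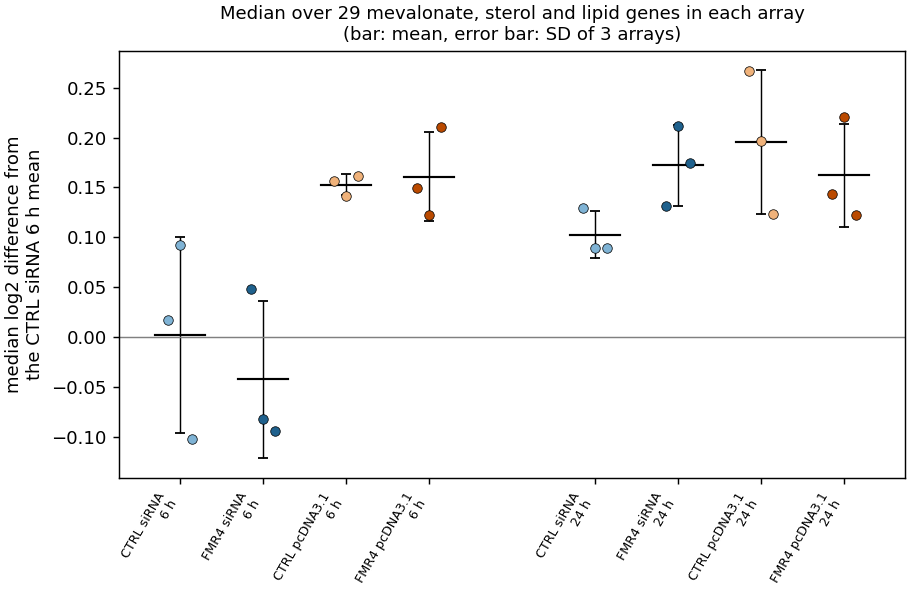
Median over the 29 genes in each array, as the log2 difference from each gene's mean in CTRL siRNA at 6 h; points are arrays, bars the mean and error bars the SD of 3 arrays. The 6 siRNA arrays of 6 h lie between −0.10 and 0.09 and the arrays of all other conditions between 0.09 and 0.27. These ranges overlap slightly, because CTRL siRNA 6 h replicate 2 (0.0919) lies above CTRL siRNA 24 h replicates 2 (0.0891) and 3 (0.0897).

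Within single treatments the change from 6 h to 24 h was called less evenly. With FMR4 siRNA 14 of 29 genes were called (48.3%), 13 higher and 1 lower, beside 16.7% of all genes called and 12.3% called higher. The largest rises were *MVK* (0.49), *ACAT2* (0.46), *DHCR7* (0.42), *LSS* (0.41) and *FASN* (0.34), and the fall was *GGPS1* (−0.82, adjusted p = 2.02e-06). The count was 9 without FMR4 siRNA 24 h replicate 2, and 1, *GGPS1*, in a fit to the 6 arrays compared. With CTRL siRNA 3 of 29 were called, beside 18.6% of all genes. They were *MVK* (0.35, adjusted p = 0.00316), which was called whichever array was left out, *ACLY* (0.27, 0.0468) and *STARD4* (−0.29, 0.0414). Without CTRL siRNA 6 h replicate 1, or any 1 of the CTRL siRNA arrays of 24 h, *MVK* alone was called. With CTRL pcDNA3.1 and with FMR4 pcDNA3.1 *FADS1* was the one gene called, with 0.27 (adjusted p = 0.00594) and 0.28 (0.00456), beside 5.76% and 6.33% of all genes. *FADS1* was kept without each array of these comparisons. The difference between the time courses of FMR4 siRNA and CTRL siRNA is the contrast of knockdown effects given above, in which *GGPS1* alone was called.

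The control groups alone differed in the same direction as the arms, with fewer calls. For CTRL pcDNA3.1 minus CTRL siRNA at 6 h the difference was above 0 in 28 of 29 genes, with a median of 0.18, and 2 were called higher, beside 3.31% of all genes. They were *MSMO1* (0.35, adjusted p = 0.0423) and *SCD* (0.29, 0.0477). *MSMO1* read 11.38, 11.38 and 11.25 with CTRL pcDNA3.1 and 11.10, 10.95 and 10.93 with CTRL siRNA, which do not overlap. Both calls were lost when any 1 of the 6 arrays was left out. In the absence of CTRL siRNA 6 h replicate 2, *DHCR7* was called instead (0.44, adjusted p = 0.0408). At 24 h 4 genes were higher with CTRL pcDNA3.1 and 0 lower, beside 4.49% of all genes called and 2.9% called higher. *STARD4* differed by 0.53 (SE 0.096, adjusted p = 0.00193), with 8.28, 8.34 and 8.13 against 7.81, 7.64 and 7.72, and passed under every alternative and without each array. *SCD* (0.28), *IDI1* (0.26) and *FADS1* (0.21) had adjusted p from 0.0328 to 0.0493. The count was 2 when CTRL pcDNA3.1 24 h replicate 2 was left out and 1 when any other array of the comparison was.

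**Figure D4:**
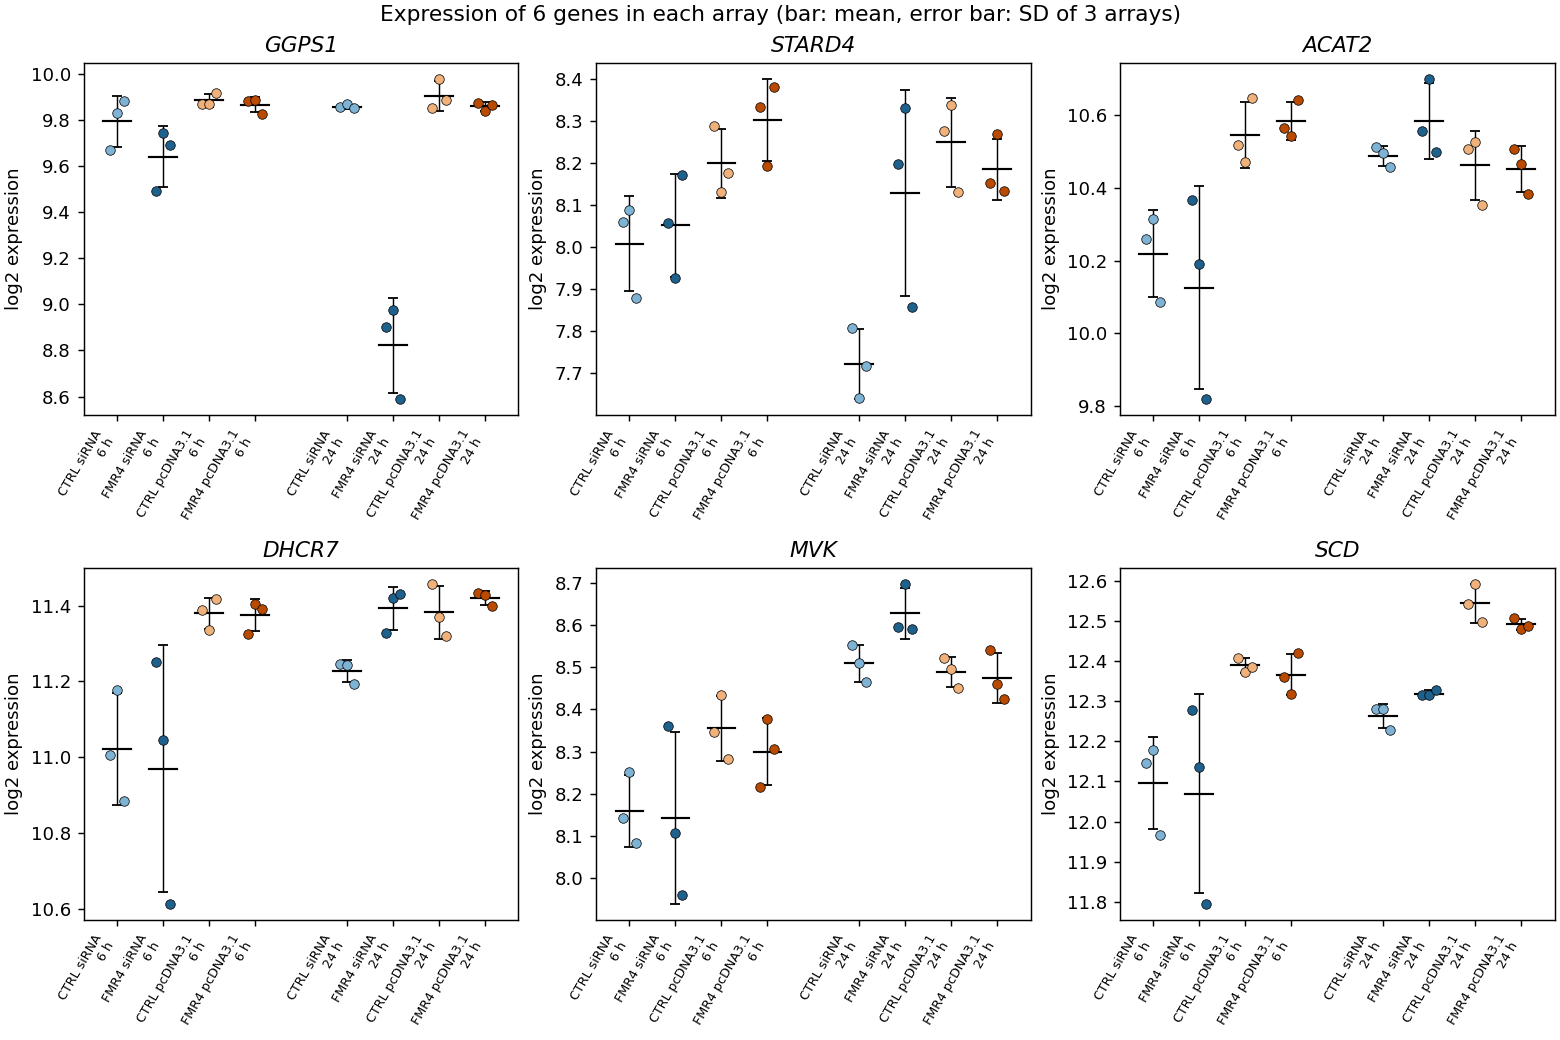
Log2 expression of GGPS1, STARD4, ACAT2, DHCR7, MVK and SCD in each of the 24 arrays; points are arrays, bars the mean and error bars the SD of 3 arrays, and each panel has its own scale. GGPS1 stands apart at 8.59 to 8.98 in FMR4 siRNA at 24 h, STARD4 is lowest in CTRL siRNA at 24 h, and ACAT2, DHCR7 and SCD are lower in the siRNA arrays than in the plasmid arrays of 6 h.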

How the data were processed

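HEK293T cells were profiled on 24 Affymetrix Human Gene ST arrays, given as version 1.0 in the labels and 2.0 in the methods. The values that the authors deposited are log2 expression values after background subtraction and GC-RMA, and they were used without rescaling. The scanner files were not used here. Groups come from the sample titles. Probe sets were named through GEO's platform annotation and RefSeq (21214 named of 33297, 27 symbols updated), and where a gene had several single-symbol probe sets the one of highest mean was taken.

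One mean per condition was fitted to all 24 arrays with limma 3.58.1 in R 4.3.3 (16 residual degrees of freedom), two-sided, with Benjamini-Hochberg adjustment over the 21214 named probe sets within each comparison and a threshold of 0.05. Shares of all genes called are counted afterwards over the 18395 genes, each by its 1 probe set. The comparisons were 12, and 4 were added after the values were seen. Replicates are labelled biological, and p-values measure the spread between these arrays, whose number limits the precision. The members, lists and roles were chosen with earlier results of these data known. Genes past the threshold in the knockdown, or of lowest p in a comparison, are given array by array for the groups of a comparison in which they were picked. For time and control comparisons the 5 largest rises and falls are named, and from each related list up to 3 genes of lowest adjusted p. Neighbours of *GGPS1* were chosen after its values were seen.

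The alternatives were eBayes with trend and robust options, array weights, quantile normalization, median centring, removal of dim probe sets, the mean over probe sets, adjustment over all probe sets, the replicate number as a block, a fit restricted to 1 time (12 arrays) or to the groups compared, and leaving out every array once. The fit was also run on simulated data with independent errors, for the knockdown at 24 h. That run does not cover arrays that deviate together or the other comparisons. Among the 10 pairs of groups compared directly, none had same-number replicates that deviated together (correlation over 0.1) in all 3 pairs, so they were not treated as pairs. The highest correlation was 0.47, for replicate 3 of CTRL siRNA and FMR4 siRNA at 6 h. Replicates 1 and 2 of these groups gave 0.17 and −0.06. Plots were made in Python 3.11.15 with matplotlib 3.10.9.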

Additional observations from a re-analysis of the deposited data

Results flagged for a closer look

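In *GGPS1* the knockdown effect differed between the times, by −0.88 on the log2 scale (24 h minus 6 h), in limma's test of the interaction (adjusted p = 0.000230). The change over time differed between the siRNA and the plasmid arm, in the same kind of test, for 8 of the 29 genes, a contrast added after the values were seen. The siRNA arm rose more in *ACAT2* (0.47), *FASN* (0.31), *INSIG1* (0.29), *SCAP* (0.28), *MVK* (0.26) and *SREBF2* (0.25). It changed less, or fell, in *GGPS1* (−0.38) and *FADS1* (−0.19). The value for *GGPS1* averages groups that went opposite ways. Its mean fell from 9.64 to 8.82 with FMR4 siRNA and went from 9.79 to 9.86 with CTRL siRNA. Of these 8, *ACAT2*, *FASN* and *GGPS1* kept the call under every alternative. No condition was tested for a single outlying value, for which 3 arrays are too few.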

How the results depend on the processing

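For the genes called in a comparison, no difference turned its direction in the alternatives run: 1369 values stayed past the threshold and 297 lost the call. Several alternatives change only the spread, the adjustment or the genes fitted. They leave a difference as it is and could not turn it. Differences without a call did turn, as in the knockdown at 6 h, where 3 to 15 of 29 lay above 0, and the overexpression at 24 h, where 9 to 19 did. In the knockdown at 24 h the count of called genes was 1 with only the arrays compared, and 1 to 3 with single arrays left out. For the knockdown effect at 24 h minus 6 h it was 2 with array weights (1 to 2 with arrays left out), and for the overexpression minus the knockdown effect 2 with trend and robust options, 3 with array weights and 3 with dim probe sets removed (1 to 3). For the change over time it was, with CTRL siRNA, 10 with array weights, 5 with dim probe sets removed, 1 adjusted over all probe sets and 1 with the replicate block (1 to 4). With FMR4 siRNA it was 1 with only the arrays compared (9 to 17), with CTRL pcDNA3.1 2 with array weights (1 to 1), and with FMR4 pcDNA3.1 3 with array weights and 2 with only the arrays compared (1 to 1). Between the controls at 6 h it was 5 with trend and robust options, 10 with array weights, 0 with quantile normalization, 5 with dim probe sets removed, 0 adjusted over all probe sets, 0 with the 12 arrays of the time and 4 with only the arrays compared (0 to 1). At 24 h it was 1 with median centring and 1 adjusted over all probe sets (1 to 2). Between the arms at 6 h it was 10 with the 12 arrays of the time, which are also the arrays compared, so 10 there too (9 to 23). The change over time in the siRNA arm kept its count within 1.5 times. Its lowest count was 12, with only the arrays compared (14 to 18 with arrays left out). In the plasmid arm it was 8 with array weights and 7 with only the arrays compared (2 to 5). The difference between the arms' changes over time was 13 with array weights and 3 with the replicate block (4 to 13), which lost *INSIG1* (adjusted p = 0.0554), *SCAP* (0.0578), *MVK* (0.0609), *SREBF2* (0.0670) and *FADS1* (0.0925). Besides this count and that of the change over time with CTRL siRNA, the replicate block moved no count by more than 1.5 times. The knockdown at 6 h and both overexpression comparisons stayed at 0 under every setting. In each of these cases the cause was not tested. Quantile normalization and median centring turned the sign of the median over the genes only in the overexpression at 24 h and in changes over time with plasmid, where it lay between −0.03 and 0.03. With 3 arrays per condition, a gene without a call is not shown to be unaffected.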
